A study of Mus musculus with 43 samples.

Results

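The vascular endothelial growth factor (VEGF) genes examined here were 8: the receptor tyrosine kinase genes Flt1 (VEGFR1), Kdr (VEGFR2) and Flt4 (VEGFR3), the co-receptor genes Nrp1 and Nrp2, and the ligand genes Vegfa, Vegfb and Pgf. They were taken by symbol from a count table of 54532 genes, all 8 symbols were present, and all 8 passed the filter on low counts. The libraries were RNA-seq of brain endothelial cells (ECs) sorted by flow cytometry as CD45-, CD11b- and CD31+, from the cortex (21 libraries) or the hippocampus (22 libraries) of 2-month-old mice with no treatment or engineered allele named in the labels. There were 7 inbred strains: the long-inbred 129S1/SvImJ (9 libraries), A/J (5), C57BL/6J (6), DBA/2J (5) and NOD/ShiLtJ (6), and the recently wild-derived CAST/EiJ (6) and WSB/EiJ (6). Females gave 16 libraries and males 27. A tag in each title, high or low, has no definition in the sources used here; high was the tag of 15 of 16 female and 14 of 27 male libraries. Titles of 4 of the 6 female 129S1/SvImJ libraries end in a number, and 3 of them (cortex high, cortex low and hippocampus high) share the number 3. No label says what this number marks or ties a library to a mouse, and 1 mouse could have given both regions, so the p-values below measure the spread between libraries, which may in part be technical. Reads without molecular identifiers are not independent molecules.

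VEGF signalling is the main growth, survival and permeability pathway of blood vessel endothelium. VEGF-A binds both VEGFR1 and VEGFR2, of which VEGFR2 carries most of the mitogenic and permeability signal, whereas VEGFR1 binds VEGF-A tightly, signals weakly and acts largely as a decoy; VEGF-B and placental growth factor (Pgf) bind VEGFR1 only. VEGFR3 is best known as the receptor for VEGF-C and VEGF-D in lymphatic endothelium, and the neuropilins bind both semaphorins and VEGFs and enhance signalling through the receptors. In the brain, astrocytes, pericytes and neurons are major sources of VEGF-A, and endothelial cells are its main targets.

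Column totals ran from 1626534 to 49372356 counts, with a median of 21242100 in females and 5257350 in males. The rRNA-like transcripts Gm23935, Gm42418 and Gm26917 took between 1.59% and 29.3% of counts, with a median of 3.12% in females and 18.7% in males, so sex, depth and this share moved together. All 14 endothelial markers were detected, with Slc2a1 at a mean of 1689 counts scaled to library size (CPM) and Pecam1 at 856, and the microglial list stayed low (median summed level of 8 genes 24.99 CPM). Transcripts of pericytes (10 genes, 4494 CPM) and astrocytes (10 genes, 3428 CPM) were present in the sorted fraction, with the pericyte marker Rgs5 at a mean of 3531 CPM. In such bulk libraries fewer cells of a type and less RNA per cell cannot be told apart.

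Positions are given on the mm10 assembly as annotated by GENCODE M21. Flt1 (ENSMUSG00000029648) and Kdr (ENSMUSG00000062960) share the minus strand of chromosome 5, at chr5:147561604-147726011 and chr5:75932827-75978458. Flt4 is at chr11:49609263-49652739 (plus), Nrp1 at chr8:128358604-128503363 (plus) and Nrp2 at chr1:62703285-62818695 (plus). Vegfa is at chr17:46016993-46032369, Vegfb at chr19:6982473-6987651 and Pgf at chr12:85166635-85177790, each on the minus strand. Counts were summed over exons of each gene, so no isoform, such as the soluble form of VEGFR1, was separated.

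The sequences of 2 promoters are shown because Flt1 and Kdr, the most abundant members, behaved differently across strains. Each is the 250 bases before the RefSeq start in GRCm38.p6, which is the C57BL/6J reference, read 5′ to 3′ on the minus strand. The Flt1 window is chr5:147726012-147726261 and the Kdr window chr5:75978456-75978705. Capitals mark the core GGAA of ETS-family sites on either strand (TTCC when reversed), the cAMP response element TGACGTCA and the TATA box TATAAA.
Flt1: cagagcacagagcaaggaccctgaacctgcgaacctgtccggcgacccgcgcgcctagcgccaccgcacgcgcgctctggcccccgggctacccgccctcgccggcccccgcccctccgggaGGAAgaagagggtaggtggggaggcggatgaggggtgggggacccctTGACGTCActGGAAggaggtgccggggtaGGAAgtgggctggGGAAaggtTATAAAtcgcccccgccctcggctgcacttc
Kdr: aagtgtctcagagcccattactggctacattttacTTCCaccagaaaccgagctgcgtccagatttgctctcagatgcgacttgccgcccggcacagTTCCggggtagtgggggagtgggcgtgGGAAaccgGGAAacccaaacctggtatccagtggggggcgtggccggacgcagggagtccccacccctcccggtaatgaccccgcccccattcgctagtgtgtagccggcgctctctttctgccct

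The Flt1 window held 4 ETS cores, 1 cAMP response element starting 81 bases before the start and 1 TATA box starting 31 bases before it, with 23 CpG dinucleotides. The Kdr window held 4 ETS cores and 16 CpG dinucleotides and neither of the other motifs as spelled here. Of 32851 RefSeq windows of the same length, 93.4% held at least 1 ETS core, 1.55% the cAMP response element and 12.4% the TATA letters, with a median of 6 CpG. These are matches of letters only, and the sequences of the other strains were not analysed here.

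Flt1 was the most abundant of the 8 genes in every library. Per kilobase of exon, the scale used to compare genes, it stood at 385 CPM/kb ± 50.7 (SD, n = 43), above Kdr at 118 ± 36.3 in 43 of 43 libraries. Flt1 ranked 25th and Kdr 121st among 17644 protein-coding genes. The within-library ratio of Flt1 to Kdr per kilobase was 1.76 ± 0.45 on the log2 scale (n = 43), or 3.39-fold. Kdr in turn was above Nrp1 in 43 of 43 libraries.

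The next receptors were close together. Nrp1 (30.0 ± 10.8 CPM/kb) and Flt4 (28.9 ± 8.08 CPM/kb) could not be ordered, as Nrp1 was higher in 25 of 43 libraries. Nrp2 averaged 9.03 ± 2.96 CPM/kb, below Nrp1 in every library, with a log2 ratio of Nrp1 to Nrp2 of 1.72 ± 0.69. Flt4 was present although transcripts of lymphatic endothelium were scarce: 5 detected markers of that cell type had a median of 14.3 CPM summed. Lyve1, its hyaluronan receptor, was at a median of 0 and Prox1 at 5.08 CPM. Over 43 libraries, Pearson's r of Flt4 with the mean of these markers in log2(CPM + 1) was 0.30 (-0.06 in 16 females, 0.56 in 27 males). By mean level this list was led by Prox1 (11.1 CPM) and Reln (6.87 CPM), above Pdpn (1.27), Mmrn1 (0.88) and Lyve1 (0.20). The cell type that these transcripts came from, and their part in the Flt4 values, were not tested.

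The ligand transcripts were more scattered. Vegfb averaged 19.3 ± 15.8 CPM/kb, below Flt4 in 34 of 43 libraries and above Nrp2 in 36, and Vegfa averaged 5.13 ± 4.78 CPM/kb, below Nrp2 in 36. The ratio of Vegfb to Vegfa was above 1 in 36 of the 40 libraries with more than 3 counts of each (log2 mean 1.94 ± 1.44). Pgf was listed at 0 in 18 of 43 libraries and at 3 counts or fewer in 24, with a highest level of 15.4 CPM. Relative to the mean, the SD was 13.2% for Flt1, 30.7% for Kdr, 27.98% for Flt4, 36.1% for Nrp1, 32.8% for Nrp2, 81.9% for Vegfb, 93.2% for Vegfa and 161% for Pgf. Vegfc and Vegfd, which encode the ligands of VEGFR3, had medians of 10.7 and 0 CPM, with Vegfd at 0 in 25 libraries.

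**Figure D1:**
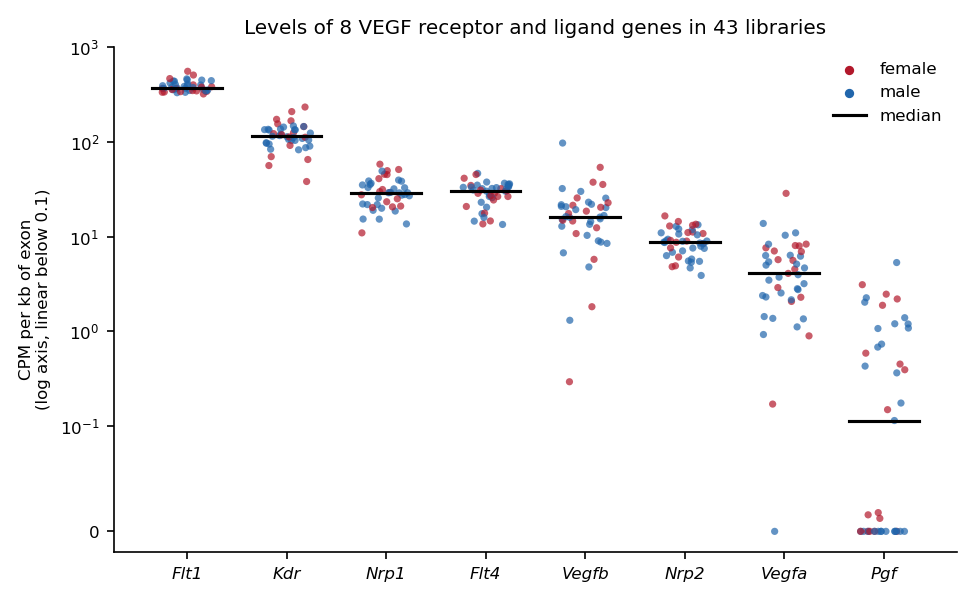
Levels of the 8 genes in each of 43 libraries (points, coloured by sex) in CPM per kilobase of exon on a log axis that is linear below 0.1, with the median as a line. Flt1 lies above Kdr in 43 of 43 libraries, and Pgf is at 0 in 18.

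The strains were compared to ask whether VEGF gene expression in brain ECs depends on genetic background. Kdr was the only member that differed between the 7 strains by edgeR's quasi-likelihood test (F = 6.52, Benjamini-Hochberg adjusted p = 0.00154). That is 1 of 8 members called, where 781 of 29120 genes (2.68%) were called overall. The other 7 had adjusted p-values of 0.527 (Flt1) to 0.921 (Flt4).

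Kdr was lowest in 129S1/SvImJ, where it ran from 344 CPM through a median of 753 to 1015 in 9 libraries. In NOD/ShiLtJ, at the other end of the order, it ran from 1199 through 1309 to 1879 in 6 libraries. The 9 and 6 libraries did not overlap. These strains are the ends of the Kdr order, and the share of all genes whose end strains do not overlap was not computed.

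The remaining strains lay between these. The lowest, median and highest libraries were 812, 983 and 1100.5 CPM in CAST/EiJ, 743, 988 and 1306 in C57BL/6J, and 942, 1215 and 1558 in WSB/EiJ. The 5 A/J libraries were at 855, 979, 1116, 1232 and 1396, and the 5 DBA/2J libraries at 931, 1049, 1091, 1211 and 2099.65. In the order of strain means (129S1/SvImJ 716 ± 223, CAST/EiJ 970.2 ± 116, C57BL/6J 1005 ± 196, A/J 1115 ± 211, WSB/EiJ 1208 ± 221, DBA/2J 1276 ± 471, NOD/ShiLtJ 1401 ± 259) only the step from 129S1/SvImJ to CAST/EiJ was larger than the SD of both neighbours. The highest DBA/2J value was a female hippocampus library.

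Set against the mean of the other 6 strains, Kdr in 129S1/SvImJ was lower by 0.69 on the log2 scale (SE 0.13, adjusted p = 0.000888, edgeR), or 0.621 times their level with a 95% interval of 0.520 to 0.743. In this contrast 82 of 29120 genes (0.282%) were called lower and 426 (1.46%) in either direction. No member was called in the contrasts of A/J (0.254% of genes called), C57BL/6J (0.529%), CAST/EiJ (1.35%), DBA/2J (0.192%), NOD/ShiLtJ (0.185%) or WSB/EiJ (2.41%). NOD/ShiLtJ exceeded the rest by 0.44 (SE 0.14), with an unadjusted p of 0.00268 from the edgeR fit but an adjusted p of 0.325.

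**Figure D2:**
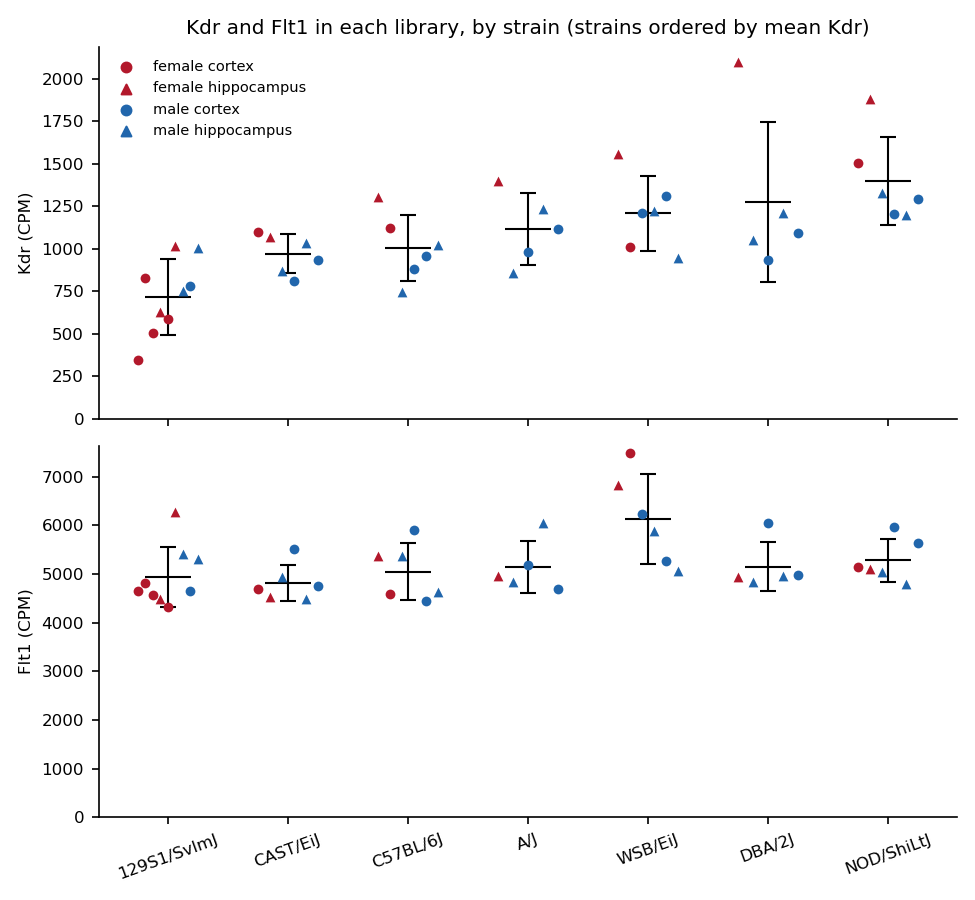
Kdr (upper panel) and Flt1 (lower panel) in CPM for each library, by strain in order of mean Kdr; colour gives sex, shape gives region, and bars show the mean ± SD. Kdr in 129S1/SvImJ averages 716 CPM and in NOD/ShiLtJ 1401, whereas strain means of Flt1 stay between 4818 and 6126.

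Females make up 6 of the 9 libraries of 129S1/SvImJ and held its lowest Kdr values. Female 129S1/SvImJ libraries ran from 344 through a median of 608 to 1015 CPM, and 5 of these 6 were below all 10 female libraries of the other strains, which ran from 1007 through 1351 to 2099.65. How many other genes separate these female groups as far was not computed. The 3 male 129S1/SvImJ libraries were at 753, 783 and 1003 CPM, inside the male range of the other strains (743, 1041 and 1327 for the lowest, median and highest of 24). In male libraries alone the 129S1/SvImJ difference in Kdr was -0.29 (SE 0.16, adjusted p = 0.402, edgeR), and the strain test gave an adjusted p of 0.490. Without the 6 female 129S1/SvImJ libraries the contrast was -0.43 (SE 0.19, adjusted p = 0.233), and with sex, region and title tag as terms it was -0.75 (SE 0.11, adjusted p = 1.22e-05). With the 6 female libraries summed into 3 by the number at the end of their titles, an alternative chosen after the data were seen, it was -0.62 (SE 0.14, adjusted p = 0.0152).

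The difference of the sex effect between 129S1/SvImJ and the other strains, fitted after these values were seen, was -0.79 for Kdr (SE 0.25, unadjusted p = 0.00282, adjusted p = 0.367, edgeR). For Nrp1 it was -1.06 (SE 0.34, unadjusted p = 0.00275, adjusted p = 0.363). None of the 8 members was called in that fit, in which 0.0687% of genes were called. The female 129S1/SvImJ libraries also stood apart in other measures. Their totals were deeper (median 39328300 counts against 19175400 in other females), their rRNA-like share was lower (median 2.30% against 6.85%), and the summed level of 8 neuronal markers was higher (median 638 against 225 CPM, with ranges of 256 to 1155 and 122 to 1042). Endothelial markers, 14 of 14 detected, were at a median of 8722 CPM against 11047 (ranges 5848 to 13743 and 8793 to 13344). Summed markers of fibroblasts (7 genes, median 38.3 against 84.8 CPM, ranges 7.30 to 41.6 and 31.6 to 166), microglia (8 genes, 16.8 against 43.6, ranges 12.6 to 23.5 and 15.4 to 147) and choroid plexus (7 genes, 74.6 against 192, ranges 59.5 to 92.6 and 52.99 to 867) were lower in median. Of the choroid plexus list, Enpp2 had a median of 68.6 CPM over all 43 libraries. Kl was at 0.77, Ttr at 0.61 and Aqp1, Clic6, Folr1 and Prlr at 0. Sums of that list, here and below, are thus mostly Enpp2 in a typical library. The part of depth and of the cell types named here in the Kdr difference was not tested.

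Flt1 did not follow Kdr. Its strain means lay between 4818 CPM in CAST/EiJ and 6126 in WSB/EiJ, and in 129S1/SvImJ it was 0.942 times the level of the other strains, with a 95% interval of 0.851 to 1.04. As a result the log2 ratio of Flt1 to Kdr was 2.27 ± 0.41 in 129S1/SvImJ and 1.35 ± 0.30 in NOD/ShiLtJ, with 1.49 to 1.77 in the other strain means. In WSB/EiJ, Flt1 ran from 5061 through 6054 to 7483 CPM and was higher than in the other strains by 0.28 (SE 0.09), with an edgeR adjusted p of 0.0646. With sex, region and title tag as terms the adjusted p was 0.0211, and in males alone the difference was 0.12 with an adjusted p of 0.968. Pericyte markers had a median of 9035 CPM summed in WSB/EiJ (10 genes, 5242 to 9756) against 4035 in the other strains (2161 to 8751), and 14 endothelial markers 9227 (7785 to 10005.5) against 10210 (5848 to 13864); their part in the Flt1 value was not tested. The 2 female WSB/EiJ libraries, at 7483 (cortex) and 6832 CPM (hippocampus), were the highest of all 43 with TMM scaling. That rank depends on the scaling. By column totals alone the highest WSB/EiJ library was at 6507 CPM, below a 129S1/SvImJ library at 6551. With DESeq2 size factors the highest libraries of WSB/EiJ and NOD/ShiLtJ were at 6237 and 6155.

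Flt4 and the neuropilin genes were not called in any strain contrast. Strain means of Flt4 lay between 211 CPM (129S1/SvImJ) and 261 (NOD/ShiLtJ), those of Nrp1 between 226 (129S1/SvImJ) and 369 (WSB/EiJ), and those of Nrp2 between 88.9 (DBA/2J) and 126 (NOD/ShiLtJ), with no step between neighbours above their SD. Nrp1, the VEGFR2 partner, was 0.45 lower on the log2 scale in 129S1/SvImJ (SE 0.18, unadjusted p = 0.0166 from edgeR, adjusted p = 0.169). The 6 female 129S1/SvImJ libraries (107, 203 and 245 CPM for the lowest, median and highest) were all below the 10 other female libraries (270, 420 and 567). The share of all genes with such a gap between these groups was not computed. The 3 males were at 149, 346 and 357 CPM, inside the range of the 24 other males (133 to 480.0), and in males alone the difference was 0.09.

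For Vegfa, Vegfb and Pgf, no step between neighbouring strain means exceeded the larger SD of the pair. Vegfa means ran from 12.5 CPM in DBA/2J to 36.9 in WSB/EiJ, the latter resting on a female cortex library at 122 CPM against 0.73 to 35.6 in the other 5. Vegfb means ran from 15.1 CPM in C57BL/6J to 54.6 in A/J, where the 5 libraries were at 20.6, 29.7, 32.4, 34.8 and 156. Against the other strains, Vegfb differed by 1.07 in A/J (SE 0.43, unadjusted p = 0.0151) and by -1.09 in C57BL/6J (SE 0.48, unadjusted p = 0.0259), with edgeR adjusted p-values of 0.318 and 0.275. Vegfb moved with markers of other cell types. Across 43 libraries that share depth and preparation, Pearson's r of log2(CPM + 1) with the mean of 10 astrocyte markers was 0.51 (0.67 in 16 females, 0.51 in 27 males). With neuronal markers it was 0.34 (0.64 in females, 0.03 in males). With the list for lymphatic endothelium, led by Prox1 and Reln, it was 0.20 (0.59 and -0.01). The highest Vegfb library was from A/J, whose astrocyte markers had the highest strain median (6969 CPM summed). The part of RNA from these cell types in the Vegfb values was not tested.

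Of 76 genes in 7 lists around the pathway, 13 were called by strain (2.68% of all genes) and 4 in the 129S1/SvImJ contrast, all 4 lower (0.282% of all genes called lower). The median log2 difference of the 76 genes in that contrast was -0.18, against 0.10 for all genes tested. The lists were chosen with earlier results of these data known. The shares of all genes cover every gene that reached 0.5 CPM in any 1 library. Here and below, these shares are set beside the lists as a description and not as a test of the pathway. The phosphatase gene Ptprb (VE-PTP), which restrains VEGFR2, was lower by 0.35 (SE 0.09, adjusted p = 0.0214, edgeR). Nfatc1, a calcium-regulated transcription factor downstream of VEGFR2, was at 25.6 ± 13.9 CPM in 129S1/SvImJ (n = 9) and 86.2 ± 38.2 in the other strains (n = 34), a log2 difference of -1.70 (SE 0.27, adjusted p = 1.51e-05, edgeR). Dll4, the Notch ligand induced by VEGF-A, differed by -0.75 (SE 0.21, adjusted p = 0.0414), and Ets2, an ETS-family factor, by -0.91 (SE 0.19, adjusted p = 0.00378). In its own contrast WSB/EiJ was also called lower in Ets2 (-0.85, SE 0.23, edgeR adjusted p = 0.0258), whereas CAST/EiJ was called higher (1.43, SE 0.19). Dll4 was called higher in WSB/EiJ (0.81, SE 0.22, edgeR adjusted p = 0.0233). Both strains enter the mean that 129S1/SvImJ was set against.

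In females all 4 medians were lower in 129S1/SvImJ than in the other strains. Ptprb had medians of 2064 and 3030 CPM, Nfatc1 21.1 and 97.4, Dll4 74.6 and 190 and Ets2 98.6 and 195. In males Ptprb had medians of 3077 and 3098 CPM, Nfatc1 30.5 and 71.6, Dll4 104 and 143 and Ets2 188 and 212. In males alone none of the 4 was called (edgeR adjusted p = 0.99999, 0.0592, 0.892 and 0.647 in the same order), and with the female 129S1/SvImJ libraries summed by title number only Nfatc1 was (0.000256; the others 0.0692 to 0.153). By list, the 129S1/SvImJ contrast called 1 of 11 receptor partners and modulators, 1 of 21 signalling genes, 1 of 13 VEGF target genes and 1 of 9 endothelial transcription factors, all lower. It called 0 of 12 neuropilin ligands and plexins, 0 of 8 oxygen-sensing genes and neither of the 2 other VEGF ligands.

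**Figure D3:**
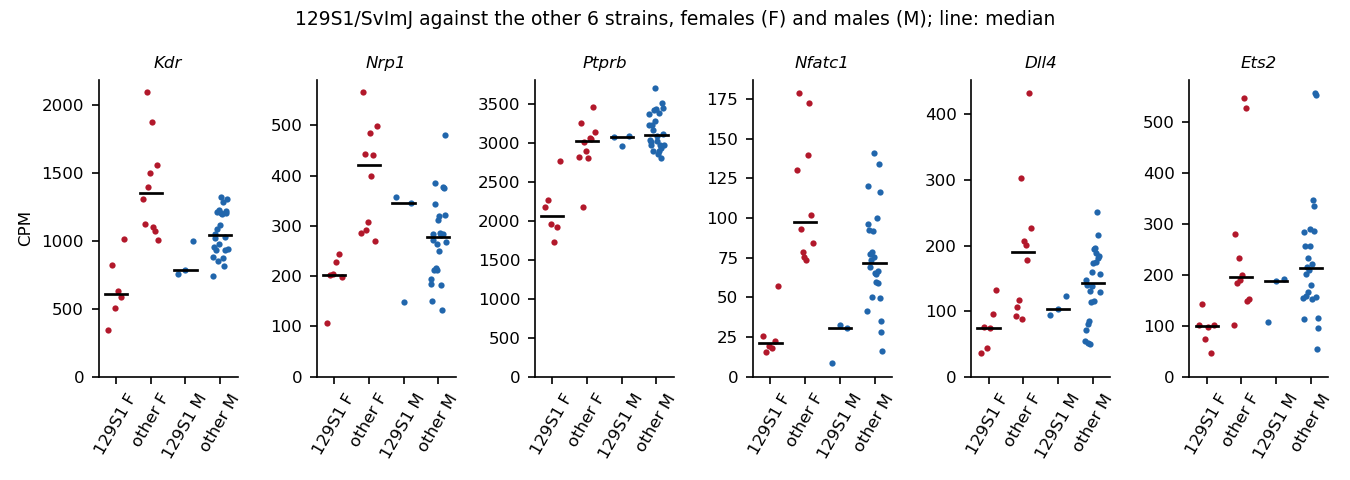
CPM of Kdr, Nrp1 and the 4 pathway genes called in the 129S1/SvImJ contrast, in each library (points) of 129S1/SvImJ and of the other 6 strains, by sex, with medians as lines. For Kdr the female medians are 608 and 1351 CPM, and for Nrp1 all 6 female 129S1/SvImJ libraries lie below the 10 other female libraries. The share of all genes with such a gap was not computed, and Nrp1 was not called in that contrast (edgeR adjusted p = 0.169).

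The other strains had calls of their own among these genes. CAST/EiJ had 4, all higher, where 1.35% of all genes were called in either direction: Clec14a, an endothelial lectin that binds MMRN2, by 1.57 (SE 0.25), Ets2 by 1.43 (SE 0.19), the semaphorin 3E receptor gene Plxnd1 by 0.85 (SE 0.18) and Efnb2 by 0.96 (SE 0.23). WSB/EiJ had 4 higher and 3 lower (2.41% of all genes called), among them Angpt2 higher by 2.23 (SE 0.46), Plxna2, a neuropilin partner, higher by 0.91 (SE 0.17) and the VEGFR2 phosphatase gene Ptprj at -1.62 (SE 0.37). The median in the WSB/EiJ contrast was -0.72 for all genes tested and -0.06 for the 76 pathway genes. Whether the shift of all genes is a background for genes at these levels was not tested. Of the 4 highest Plvap libraries, 3 were from DBA/2J hippocampus (747, 193 and 71.6 CPM) and 1 from NOD/ShiLtJ hippocampus (401 CPM). Plvap and Esm1 were called higher in DBA/2J (6.77 and 7.29) and in NOD/ShiLtJ (4.96 and 4.22), where 0.192% and 0.185% of all genes were called. Summed choroid plexus markers (7 genes, mostly Enpp2 in a typical library) had medians of 124 CPM in DBA/2J (60.1 to 487) and 102 in NOD/ShiLtJ (48.8 to 867). The median in all libraries was 86.0. The part of these markers in the Plvap and Esm1 values was not tested. In males alone 4 of the 4 CAST/EiJ calls, 1 of the 7 WSB/EiJ calls, 2 of the 2 DBA/2J calls and 0 of the 2 NOD/ShiLtJ calls were made again. Plvap, the diaphragm protein of fenestrated endothelium, was at 0 in 20 of 43 libraries. The 2 libraries with the most Plvap, both female hippocampus, were also the 2 with the most Kdr (2099.65 and 1879 CPM).

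Between the wild-derived and the long-inbred groups of strains, the test called none of the 8 members, against 218 of 29120 genes (0.749%); 1 member had an unadjusted p below 0.05, and DESeq2 also called none. That member was Nrp1, higher in the wild-derived strains by 0.33 (SE 0.16, unadjusted p = 0.0474, adjusted p = 0.704, edgeR). Nrp1 ran from 133 through 349 to 499 CPM in 12 wild-derived libraries and from 107 through 263 to 567 in 31 long-inbred libraries, with wide overlap. Kdr was 1.03 times as high (95% interval 0.848 to 1.25) and Flt1 1.07 times (0.971 to 1.19), and the Kdr difference of 0.04 was -0.0020 with DESeq2 size factors.

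Among the pathway genes 3 of 76 were higher in the wild-derived strains and none lower (0.749% of all genes called), with a median of 0.12 against -0.38 for all genes. Dll4, at 210.2 ± 77.0 CPM in 12 wild-derived and 116 ± 56.98 in 31 long-inbred libraries, was higher by 0.86 (SE 0.19, adjusted p = 0.00886, edgeR). Angpt2, the destabilising ligand of Tie2, was higher by 1.91 (SE 0.40, adjusted p = 0.00339), although its wild-derived mean of 51.5 CPM rested in part on a female WSB/EiJ cortex library at 285 CPM and the median was 28.7. Clec14a was higher by 1.01 (SE 0.24, adjusted p = 0.0127), with CAST/EiJ at a mean of 318 CPM and WSB/EiJ at 112. The comparison sets 2 strains against 5, and libraries of 1 strain are not independent samples of an origin. With counts summed per strain none of the 3 was called (edgeR adjusted p = 0.833 for Dll4 and Clec14a and 0.730 for Angpt2), and 7 of 22110 genes were called in all.

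**Figure D4:**
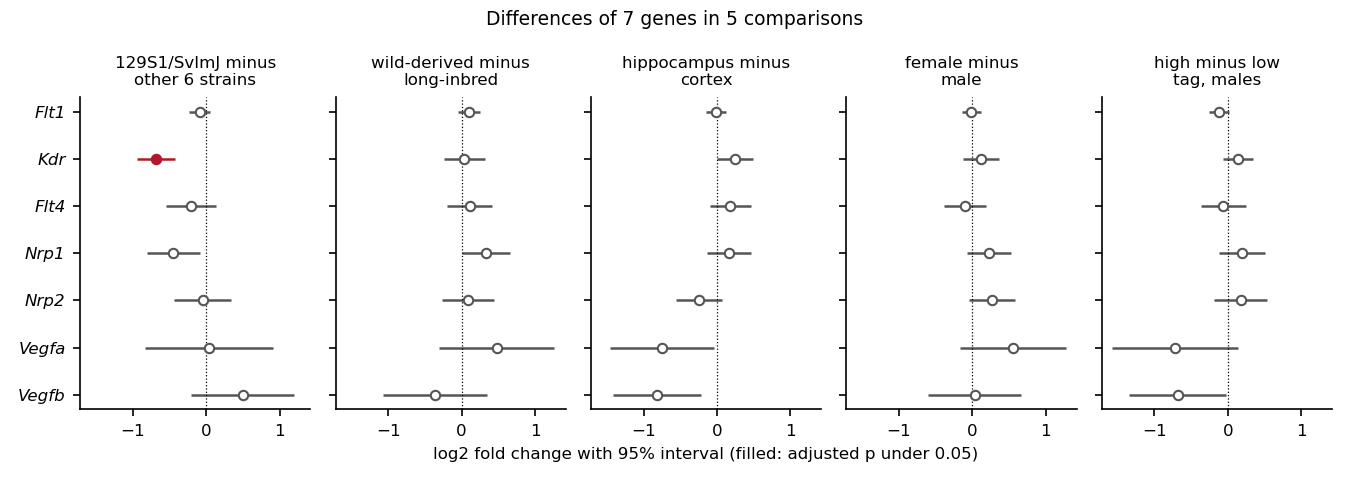
Log2 fold changes with 95% intervals for 7 of the genes in 5 comparisons; filled points passed an adjusted p of 0.05. Kdr in the 129S1/SvImJ contrast (-0.69) is the only filled point, and the intervals of Vegfa and Vegfb are the widest.

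The regions were compared to ask whether hippocampal and cortical ECs differ in VEGF gene expression. None of the 8 members was called, against 22 of 29120 genes (0.0755%); 2 had an unadjusted p below 0.05, and DESeq2 called none either. Both were ligands. Vegfb was at 0.47, 34.8 and 156 CPM (lowest, median, highest) in 21 cortex libraries and at 2.097, 24.1 and 51.5 in 22 hippocampus libraries, a log2 difference of -0.82 (SE 0.31, unadjusted p = 0.00905, adjusted p = 0.669, edgeR). Summed astrocyte markers (10 genes) had medians of 4299 CPM in cortex (1250.1 to 19792) and 2903 in hippocampus (1122 to 9565), and their part in the Vegfb values was not tested. Vegfa was at 0, 24.0 and 122 CPM in cortex and at 0.73, 12.1 and 58.9 in hippocampus, a difference of -0.75 (SE 0.36, unadjusted p = 0.0413, adjusted p = 0.669).

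No receptor passed the test between regions. Flt1 had a fold change of 0.995 with a 95% interval of 0.905 to 1.09. Kdr was at 344, 979 and 1502 CPM in cortex and at 629, 1060 and 2099.65 in hippocampus, a difference of 0.24 (SE 0.13, adjusted p = 0.669). The differences of Flt4 (0.18, SE 0.14), Nrp1 (0.17, SE 0.15) and Nrp2 (-0.25, SE 0.16) did not pass the test either (adjusted p = 0.669, 0.701 and 0.669).

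In 18 groups matched for strain, sex and title tag that held both regions, Nrp2 was lower in hippocampus in 16, with a mean difference of -0.39 ± 0.37 (SD) in log2(CPM + 1). Vegfb was lower in 14 of 18, Vegfa in 12, and Flt1 in 13 by a mean of only -0.03. Kdr was higher in 13 of 18 (mean 0.10 ± 0.25) and Flt4 in 14. The counts are given without a test, since the labels do not tie the matched libraries to a mouse. In an edgeR fit with the matched group as a term, none of the 8 members was called, against 60 of 27108 genes (0.221%). Nrp2 differed by -0.38 there (SE 0.14, unadjusted p = 0.0102, adjusted p = 0.975).

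**Figure D5:**
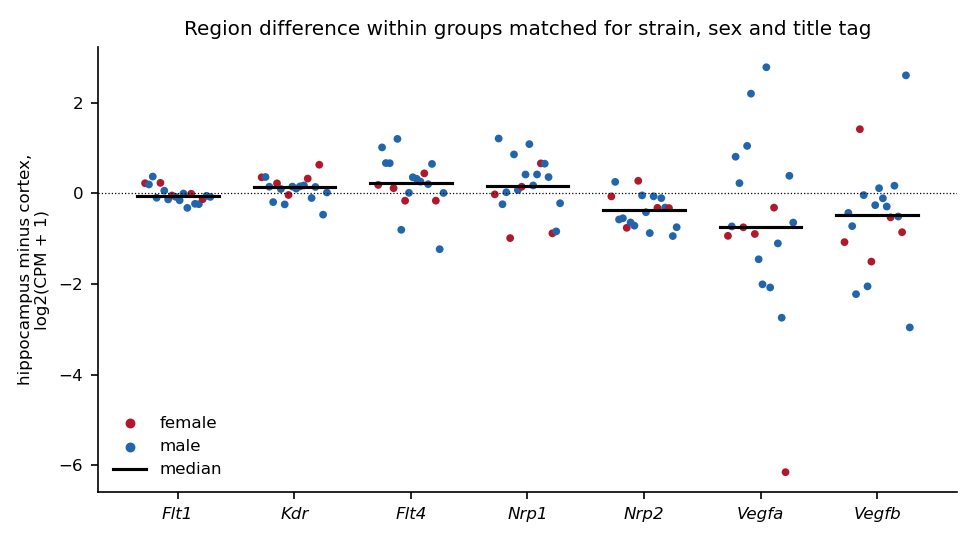
Hippocampus minus cortex in log2(CPM + 1) for 7 genes in 18 groups matched for strain, sex and title tag (points, coloured by sex), with the median as a line. Nrp2 is below 0 in 16 of 18 groups; the ligand differences scatter most, with the lowest Vegfa value at -6.15 in female WSB/EiJ.

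The effect of region did not differ detectably between wild-derived and long-inbred strains for any member (0 of 8 called, 0% of genes called, 675 at an unadjusted p below 0.05 and no member among them). Between the sexes, the region difference of Kdr was larger in females by 0.65 (SE 0.24, unadjusted p = 0.00821, adjusted p = 0.99994, edgeR; 0.00343% of genes called). Kdr in females ran from 344 through 917 to 1502 CPM in 8 cortex libraries and from 629 through 1351 to 2099.65 in 8 hippocampus libraries, whereas male medians were 979 in 13 cortex and 1026 in 14 hippocampus libraries. In males alone the region difference of Kdr was -0.01. Of the 16 female libraries, 4 of 8 from the cortex and 2 of 8 from the hippocampus were from 129S1/SvImJ, the strain with the lowest Kdr.

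Of the 76 pathway genes 2 were higher in the hippocampus and none lower, both in the list of VEGF target genes, where 0.0755% of all genes were called. They were Plvap, higher by 6.26 (SE 1.03, adjusted p = 0.000398, edgeR), and Esm1, which encodes endocan and marks tip cells, higher by 5.76 (SE 1.01, adjusted p = 0.000857). Both folds rest on few libraries, as Esm1 was at 0 in 15 of 21 cortex and 10 of 22 hippocampus libraries with a maximum of 203 CPM. With the group of strain, sex and title tag as a term neither was called (adjusted p = 0.232 for Plvap and 0.477 for Esm1). Summed choroid plexus markers (7 genes, mostly Enpp2 in a typical library) had a median of 94.3 CPM in hippocampus (22.7 to 867) and 76.1 in cortex (19.8 to 251). Their part in the Plvap, Esm1 and Kdr values was not tested.

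Sex was compared although females were sequenced more deeply, and sex cannot be told apart from depth and rRNA-like share in these libraries. None of the 8 members was called, against 830 of 29120 genes (2.85%), none had an unadjusted p below 0.05, and DESeq2 called none. Kdr ranged more widely in females (344, 1086 and 2099.65 CPM; SD 490.0, n = 16) than in males (743, 1020 and 1327; SD 178, n = 27), with a fold change of 1.08 (95% interval 0.911 to 1.29); with DESeq2 size factors the log2 difference was -0.02. Flt1 had a fold change of 0.991 (0.904 to 1.09). Vegfa, at a median of 24.2 CPM in females and 14.8 in males, differed by 0.55 (SE 0.37, adjusted p = 0.494).

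Leaving out 129S1/SvImJ changed this for Kdr. In the other 6 strains Kdr was higher in females by 0.41 (SE 0.11, adjusted p = 0.0354, edgeR), in a fit that called 468 of 27100 genes (1.73%) higher in females; this setting was chosen after the data were seen. In those strains the 10 female libraries had a median of 1351 CPM and the 24 male libraries 1041. All 10 female libraries were titled high, with 6 from the hippocampus and 4 from the cortex. The males of each strain held both tags and both regions. The part of title tag and region in this Kdr difference was not tested. The female mean was above the male mean in each of the 6 strains, by the least in WSB/EiJ (1282 against 1170.1 CPM) and by the most in DBA/2J, whose single female library (2099.65 CPM) compared with a male mean of 1070.5. Of the pathway genes 0 of 76 were called between the sexes in the full set, with a median of 0.07 against -0.12 for all genes.

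Among males, libraries titled high were compared with those titled low. None of the 8 members was called, against 293 of 27529 genes (1.06%); 1 member had an unadjusted p below 0.05, and DESeq2 called none. Vegfb was lower in libraries titled high (log2 difference -0.68, SE 0.34, unadjusted p = 0.0486, adjusted p = 0.611, edgeR). Flt1 differed by -0.13 (SE 0.07) and Kdr by 0.14 (SE 0.10). In 13 groups matched for strain and region, Kdr was higher in the library titled high in 11 and Flt1 lower in 11, with mean differences of 0.17 ± 0.24 and -0.13 ± 0.18.

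Of the 76 pathway genes 6 were called (1.06% of all genes), 3 higher and 3 lower, with a median of 0.10 against 0.04 for all genes. Sox18 was higher by 0.77 (SE 0.15, adjusted p = 0.00196), Sox7 by 0.88 (SE 0.19, adjusted p = 0.00748) and Gata2 by 0.58 (SE 0.15, adjusted p = 0.0310, edgeR). The ETS factor Erg was lower (-0.60, SE 0.14, adjusted p = 0.00931), as was Pik3r1, a regulatory subunit gene of phosphoinositide 3-kinase (-0.70, SE 0.17, adjusted p = 0.0188). What the tag stands for is not given in the sources used here.

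Members were also described by the genes whose levels ran most closely with theirs, by Pearson's r of log2(CPM + 1) over the same 43 libraries among 10262 protein-coding genes with a mean of at least 5 CPM. Flt1 ran closest with Epas1 (r = 0.67), which encodes the hypoxia-inducible factor HIF-2α and is itself abundant in these cells (mean 4720.4 CPM), then with Ttl (0.64) and Arid1a (0.63). Kdr ran closest with the Wnt receptor gene Fzd6 (0.75), then Efr3b (0.69) and Ttyh2 (0.68). For Nrp1 the leading genes were Tmem204 (0.61), Kdr itself (0.60) and Efr3b (0.59).

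Flt4 ran with Efnb1 (0.65), Phc2 (0.64) and Spock2 (0.64), and Nrp2 with Pnrc1 (0.65), Anxa5 (0.63) and Ndrg1 (0.63). Vegfb ran with Cspg5 (0.76), Tanc2 (0.73) and Ndrg2 (0.70), of which Ndrg2 is known as an astrocyte gene. Vegfa ran with Mtmr1 (0.62), Pitpnc1 (0.61) and R3hdm2 (0.60), and Pgf with Tfb2m (0.55), Hsd17b11 (0.51) and the smooth muscle actin gene Acta2 (0.50). Between members, the correlation of Kdr with Nrp1 (0.60) was the highest of 28 pairs; Flt1 and Kdr had 0.30, Vegfb and Nrp1 -0.41. After removal of the means of strain, sex, region and title tag the leading genes of most members changed: Jag2 led for Flt1 (0.71) and Sptlc1 for Kdr (0.73), and Efnb1 (0.71) and Mtmr1 (0.65) still led for Flt4 and Vegfa. Jag2 and Sptlc1 were named after their values were seen. These coefficients describe libraries that share depth and preparation and carry no test.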

How the data were processed

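Brain ECs from 43 samples were sequenced after dissection, dissociation, sorting and rRNA depletion with a stranded low-input kit. According to the methods of the study and the submitters' processing notes, alignment by the authors used HISAT2 2.1.0 against mm10 and SAMtools 1.9, and the authors deposited raw counts per gene from featureCounts (Subread 1.4.4); the strand setting of the counting is not given in the sources used here. The counts were used as deposited, with Python 3.11.15 (numpy 2.4.6, pandas 2.3.3) and R 4.3.3. A gene was kept if any 1 library reached 0.5 CPM, and kept genes entered edgeR 4.0.16 (TMM normalization, quasi-likelihood test, Benjamini-Hochberg adjustment, threshold 0.05) in a separate fit for each comparison with no covariates, as in the study, which used DESeq2; DESeq2 1.42.0 was an alternative. Standard errors are the absolute log2 fold change divided by the square root of F, and 95% intervals assume a normal error. CPM used TMM-scaled totals, and levels between genes were divided by the exon length of GENCODE M21, which matched 54409 of 54532 identifiers. Fits with covariates left out genes whose fitted counts exceeded 5 times the largest observed count (3845 in the strain fit with sex, region and title tag). The fitting was tested on counts simulated as independent libraries at the observed depths. The simulation held no shared mice and no difference in rRNA-like share, so it does not bear on those features of the design. The members and gene lists were chosen with earlier results of these data known. Named genes were the members, of the pathway genes that passed the test at most the 5 with the smallest p in each direction, and the 3 genes with the highest correlation to each member; 1 called pathway gene is not reported here. Promoters were taken from RefSeq (GRCm38.p6). Alternatives were other scalings, filters and covariates, single sexes, regions and tags, and leaving out each strain or replicate.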

Additional observations from a re-analysis of the deposited data

Results flagged for a closer look

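In 10 of 56 groups of 1 gene in 1 strain, a single library lay far from the others of its strain. The rule used would flag about 1 in 20 groups by chance if the values were independent and normally distributed. These groups mix sexes, regions and title tags, and some ligand values rest on few counts. The rate of 1 in 20 may therefore not hold here, and whether 10 of 56 is an excess was not tested. Kdr in the female DBA/2J hippocampus library was 2099.65 CPM against 931 to 1211 in the other 4, and Flt1 in the male DBA/2J cortex library titled low was 6045 CPM against 4831 to 4979. Flt4 in the male WSB/EiJ hippocampus library titled high was 110.4 CPM (180 counts) against 254 to 285, and Nrp1 in the female C57BL/6J cortex library was 567 CPM against 149.6 to 285.

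The other 6 were ligands. Vegfa in the female WSB/EiJ cortex library was 122 CPM (283 counts) against 0.73 to 35.6. Vegfb in the male A/J cortex library titled low was 156 CPM (551 counts) against 20.6 to 34.8, and in the male C57BL/6J cortex library titled low it was 48.0 CPM (227 counts) against 0.47 to 14.5. Pgf in the male C57BL/6J hippocampus library titled low was 15.4 CPM (60 counts) against 0 to 1.98. Pgf in the male DBA/2J cortex library titled low (0.51 CPM) and in the female WSB/EiJ cortex library (0.43 CPM) rested on 3 counts and 1 count.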

How the results depend on the processing

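The number of members called between strains was 2 with edgeR's default deviances, where Flt1 joined Kdr and 13525 genes were called, and 0 in males alone, in cortex alone, in hippocampus alone, without 129S1/SvImJ and without the female 129S1/SvImJ libraries. The edgeR adjusted p of Kdr in these last 5 was 0.490, 0.164, 0.711, 0.334 and 0.153, and Kdr was called in 25 of 30 alternatives. In the contrasts of single strains 2 members were called with sex, region and title tag as terms, and 0 in males alone or without the female 129S1/SvImJ libraries. Between the sexes 1 member, Kdr, was called without 129S1/SvImJ. Another 94 recomputed counts of members called stayed within 1.5 times the value reported. Outside the strain test and the contrasts of single strains the reported count was 0, so staying the same there means only that no member was called.

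Counts over all genes moved more. By strain (781) they were 1314 with DESeq2, 1234 with counts drawn down to the smallest total, 474 in males, 186 in cortex, 184 in hippocampus and 332 without CAST/EiJ. By origin (218) they were 395 with DESeq2, 6712 with default deviances, 344 drawn down, 123 in males, 40 in cortex, 68 in hippocampus and 7 with counts summed per strain. By region (22) they were 55 with DESeq2, 8023 with default deviances, 115 drawn down, 44 with strain, sex and title tag as terms, 60 with their groups as a term and 11 without NOD/ShiLtJ. By title tag (293) they were 640 with DESeq2, 8327 with default deviances, over 1.5 times as many drawn down, 550 with strain and region as terms, 27 in cortex and 5 in hippocampus. By sex (830) they were 10473 with default deviances, 241 in cortex, 304 in hippocampus, 59 with the rRNA-like share as a term, 448 in libraries titled high and 532 without 129S1/SvImJ. In the 129S1/SvImJ contrast (426) they were 136 with sex, region and title tag as terms, 77 in males, 185 without its females and 180 with these summed by title number. In males alone they were 74 for C57BL/6J (154), 255 for CAST/EiJ (394) and 225 for WSB/EiJ (701). With the same summing they were 119 for A/J (74) and 269 for C57BL/6J. Leaving out 1 library gave as few as 34 for A/J and 36 for DBA/2J (56).

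Several small differences changed sign. Nrp1 in 129S1/SvImJ was 0.0861 in males alone. Flt1 between origins was -0.10 without WSB/EiJ. Kdr between origins was -0.0021 with DESeq2, -0.0020 with its size factors, -0.0048 in males, -0.0741 in hippocampus, -0.18 with counts summed per strain, -0.14 without 129S1/SvImJ, -0.0063 without C57BL/6J and -0.15 without WSB/EiJ. Between regions Flt1 was 0.0051, 0.0119, 0.0209 and 0.0134 without CAST/EiJ, DBA/2J, NOD/ShiLtJ and WSB/EiJ, and Kdr was -0.0066 in males. Vegfb between title tags was 0.0836 in hippocampus. Between the sexes Flt1 was 0.0512 in hippocampus, 0.0337 in libraries titled high and 0.0364 without 129S1/SvImJ, and Kdr was -0.0199 with DESeq2, -0.0199 with its size factors and -0.24 in cortex. The cause was not tested. Of 88 pairs of a member and a comparison, 36 changed sign at least once. Ligand levels are limited by depth, with Pgf at 3 counts or fewer in 24 of 43 libraries. No paired analysis was possible because no label ties a library to a mouse; groups matched for strain, sex and title tag stood in for it between regions, and none of the 8 members was called there.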
